A study of Mus musculus with 20 samples.

Results

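The enzymes of the TCA cycle, with those that feed pyruvate and glutamine into it, were followed in 20 mouse intestinal RNA libraries. The set is 32 genes chosen by function and found by symbol among the 24795 genes of the table. All 32 passed the filter on low values that left 12433 genes for testing. They were divided by reaction into 13 that make or use alpha-ketoglutarate and 12 other TCA cycle enzymes. Of the rest, 4 turn pyruvate into acetyl-CoA or oxaloacetate inside mitochondria, and 3 serve glutamine synthesis and the carriage of metabolites. The libraries fall into 3 groups: the Apc Min genotype under control treatment (7 libraries), the same genotype under DM-aKG (6), and wild type, WT, without treatment (7). Apc Min is a truncating allele of Apc, whose product helps to destroy beta-catenin, and its carriers grow adenomas in the intestine. DM-aKG is a dimethyl ester of alpha-ketoglutarate, made to enter cells. Titles call the samples tissue, while the other labels give intestinal organoids, an organoid medium and a medium low in glutamine for all 3 groups. No age, dose or duration was found in the labels, and no label ties a library to an animal, so a p-value here sets a difference against the spread of libraries, which may be technical in part.

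In the TCA cycle, acetyl-CoA made from pyruvate by the pyruvate dehydrogenase complex joins oxaloacetate to form citrate, which is oxidised stepwise back to oxaloacetate. Alpha-ketoglutarate is made from isocitrate by isocitrate dehydrogenases and used by the alpha-ketoglutarate dehydrogenase complex. It also stands at the crossing with amino acids, because glutamate dehydrogenase and the transaminases convert it to and from glutamate. Glutamine, which is turned into glutamate, is a main fuel of the absorptive epithelium of the small intestine.

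Values are RPKM (reads per kilobase of gene, scaled by the read total), so that levels of different genes are on one scale per length. Changes are differences of log2(RPKM + 1) with their SE from limma, and a gene is called at a Benjamini-Hochberg adjusted p under 0.05 over all genes tested. Markers of epithelium and of other tissue were found in all 20 libraries: the summed level of 11 smooth muscle genes was 437 to 1470 RPKM in control, 991 to 1720 RPKM in DM-aKG and 1120 to 1910 RPKM in WT libraries. No smooth muscle, fibroblast or leukocyte marker of the lists was at 0 in any library. Fewer cells of a type and less RNA per cell cannot be told apart in such material. From the steps between low values, libraries held an estimated 21.3 to 29.3 M reads. The median of all genes tested was 0.20 for control over WT and -0.14 for DM-aKG over control, and it moved to 0.00 in both with median-of-ratios scaling. With that scaling the calls for control over WT went from 5368 higher and 1948 lower to 3303 and 3396. For DM-aKG over control they went from 735 higher and 3432 lower to 1370 and 1843, and for DM-aKG over WT from 2722 and 2151 to 2261 and 2779.

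Control Apc Min against WT set the background against which the treatment was read. The labels give control treatment for these Apc Min libraries and none for WT, so its part cannot be told apart from that of genotype. Differences called genotype below are those of this comparison. TCA cycle enzymes were lower in control Apc Min than in WT libraries: of the 32 genes 20 were lower, 3 higher and 9 did not pass, and the median change was -0.46 where that of all genes tested was 0.20. Over all genes tested, 15.7% were called lower and 43.2% higher in this comparison, 58.8% in either direction. With median-of-ratios scaling, Idh2, Idh3g, Aco1 and Suclg2 were called lower as well, and of the higher genes Glul alone was called. In 11 of the 32 genes every control library lay below every WT library, which held for 5.73% of all genes tested. Glutamine synthetase, Glul, was the 1 gene of the set with every control library above every WT library, against 20.4% of all genes tested. Calls by class were 10 lower of 12 among the other TCA cycle enzymes and 8 lower and 2 higher of 13 among those that make or use alpha-ketoglutarate. In the pyruvate class 1 of 4 was lower, and in the glutamine class 1 was lower and 1 higher of 3.

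**Figure D1:**
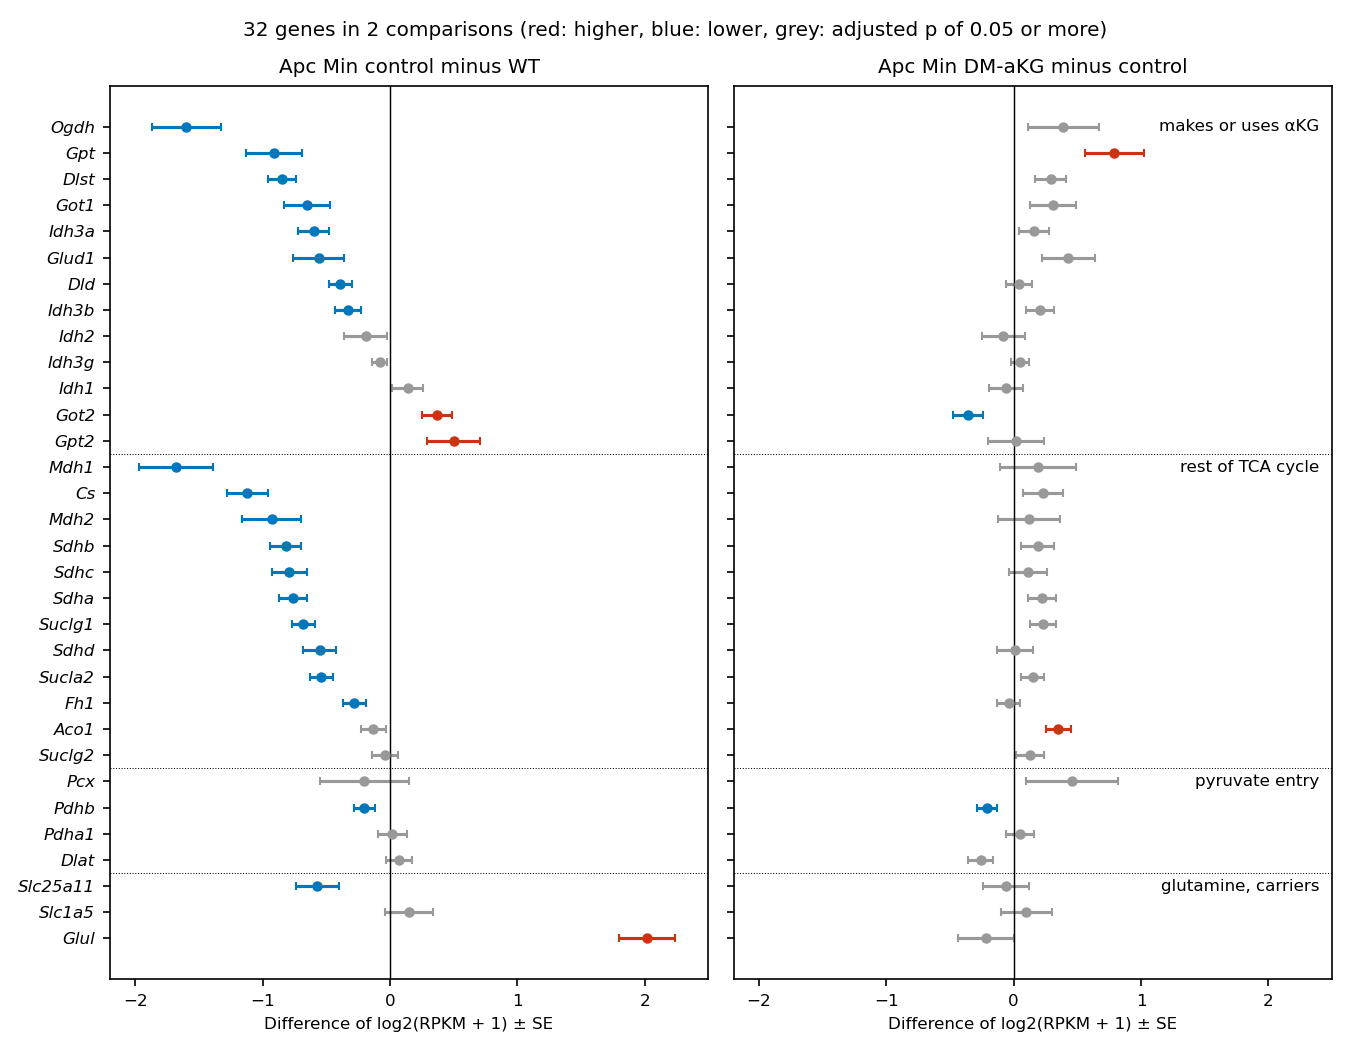
Difference of log2(RPKM + 1) with its SE for 32 genes, control Apc Min minus WT on the left and DM-aKG minus control Apc Min on the right, ordered by class and by the genotype difference. Blue points (20 on the left, 2 on the right) passed the test as lower, red points (3 on the left, 2 on the right) as higher, and grey points did not pass.

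The alpha-ketoglutarate dehydrogenase complex, which consumes alpha-ketoglutarate, was lower in all 3 of its subunits in control Apc Min libraries. Ogdh, its first subunit, a protein-coding gene of chromosome 11 (6291633 to 6356642 of mm10, forward strand; all 32 genes are protein coding), ran from 89.3 to 143 RPKM in WT (median 113) and from 19.0 to 56.9 RPKM in control libraries (median 47.3). No library of the 2 groups overlapped, and the control mean was 34.7% of the WT mean (log2 change -1.60 ± 0.27 SE, adjusted p = 5.74e-05). The succinyltransferase subunit Dlst, on chromosome 12, went from 88.4 to 135 RPKM in WT to 43.4 to 75.8 RPKM in control libraries, again without overlap (log2 change -0.85 ± 0.11 SE, adjusted p = 3.68e-06). Dld, the dehydrogenase that this complex shares with pyruvate dehydrogenase, was lower by a smaller step, 52.3 ± 2.38 RPKM in WT (SD, n = 7) and 40.2 ± 6.23 RPKM in control libraries (SD, n = 7).

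The enzymes that make alpha-ketoglutarate from isocitrate did not move as one. Of the NAD-dependent mitochondrial enzyme, the catalytic subunit Idh3a was lower in control Apc Min (45.7 ± 7.05 against 30.0 ± 5.91 RPKM, log2 change -0.60 ± 0.12 SE) and so was Idh3b (log2 change -0.33 ± 0.10 SE), whose call was lost with replicates 1 to 4 only (Idh3b adjusted p = 0.0607) and with the smooth muscle markers as a covariate (0.248). The third subunit, Idh3g, had 46.0 to 50.9 RPKM in WT and 39.2 to 48.6 RPKM in control libraries, ranges that overlapped widely (adjusted p = 0.286). The NADP-dependent enzymes did not pass either. Cytosolic Idh1 was at 79.8 ± 6.83 RPKM in WT and 88.2 ± 6.59 RPKM in control libraries (adjusted p = 0.325), and mitochondrial Idh2 at 32.3 ± 3.28 and 28.7 ± 5.87 RPKM (adjusted p = 0.344).

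Among the enzymes that interconvert alpha-ketoglutarate and glutamate, the cytosolic and mitochondrial members of a pair differed in direction. Gpt, the cytosolic alanine transaminase, on chromosome 15 (76695716 to 76699686, forward strand), ran from 62.5 to 128 RPKM in WT (median 78.5) and from 23.1 to 84.2 RPKM in control libraries (median 38.7). The ranges overlapped through control replicates 1 and 4, and the change passed the test (log2 change -0.91 ± 0.22 SE, adjusted p = 0.00131). Its mitochondrial counterpart Gpt2 was far less abundant, 2.14 ± 0.524 RPKM in WT and 3.57 ± 1.55 RPKM in control libraries, and was called higher by a narrow margin (adjusted p = 0.0487). That call was lost in 17 of 29 alternatives, 12 of which left out a single library (adjusted p 0.0503 to 0.121 for Gpt2). These libraries were WT replicates 1, 2, 5, 6 and 7, control replicates 1, 2, 4, 6 and 7, and DM-aKG replicates 2 and 3. The aspartate transaminases showed the same opposition: cytosolic Got1 was lower in control libraries (51.6 ± 12.9 against 32.7 ± 9.71 RPKM, adjusted p = 0.00362) and mitochondrial Got2 higher (19.5 ± 1.99 against 25.5 ± 3.01 RPKM, adjusted p = 0.011). Got2 was not called after quantile normalization (adjusted p = 0.0707) or median-of-ratios scaling (0.297), with replicates 1 to 4 only (0.0745) or with the smooth muscle covariate described with the cell type markers (0.273). Glutamate dehydrogenase, Glud1, ran from 59.5 RPKM in replicate 2 to 188 RPKM in replicate 1 of WT (median 137) and from 58.6 to 104 RPKM in control libraries (median 78.5), with overlap. It was called lower (log2 change -0.56 ± 0.20 SE, adjusted p = 0.0216), but not with replicates 1 to 4 only (Glud1 adjusted p = 0.465), without WT replicate 1 (0.0559) or without WT replicate 3 (0.0535).

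The remaining steps of the cycle were lower nearly throughout. Mdh1, on chromosome 11 (21556787 to 21572367, reverse strand), is the cytosolic malate dehydrogenase of the malate-aspartate shuttle. It was counted with the 12 other TCA cycle enzymes and had the largest genotype difference of that class. It ran from 169 to 465 RPKM in WT (median 266) and from 47.0 to 138 RPKM in control libraries (median 99.1), without overlap (log2 change -1.68 ± 0.29 SE, adjusted p = 5.72e-05). Mitochondrial Mdh2, the most abundant gene of the set in WT at 362 ± 142 RPKM, was at 186 ± 56.3 RPKM in control libraries, and its ranges overlapped (adjusted p = 0.00199; 0.0822 with replicates 1 to 4 only). Citrate synthase, Cs, which opens the cycle, on chromosome 10 (128337734 to 128362479, forward strand), ran from 280 to 415 RPKM in WT and from 95.4 to 195 RPKM in control libraries. The control mean of Cs was 46.9% of the WT mean (log2 change -1.12 ± 0.16 SE, adjusted p = 6.19e-06).

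**Figure D2:**
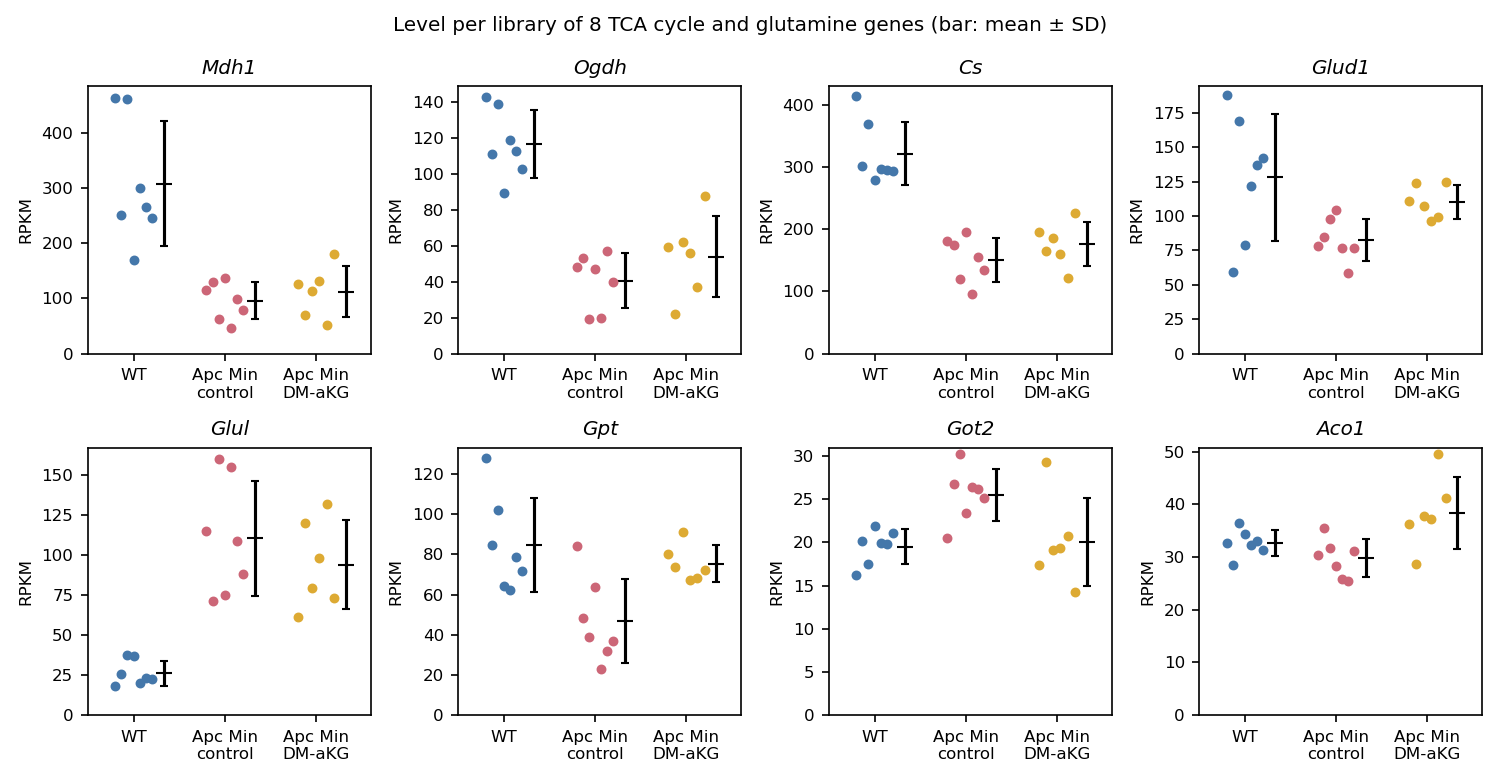
RPKM of 8 genes in each library of the 3 groups (points in replicate order, with the mean ± SD beside them, linear axes from 0). Mdh1, Ogdh and Cs show no overlap between WT and control Apc Min libraries, Glul lies above WT in both Apc Min groups, and the DM-aKG points of Gpt lie between 67.2 and 91.4 RPKM.

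Succinate dehydrogenase, which is also complex II of the respiratory chain, was lower in all 4 subunits. Its flavoprotein subunit Sdha was at 59.4% of the WT mean in control libraries, the iron-sulfur subunit Sdhb at 57.0%, and the membrane anchors Sdhc and Sdhd at 57.4% and 67.9%. For Sdha the ranges were 120 to 142 RPKM in WT and 57.2 to 90.4 RPKM in control libraries, and only Sdhd overlapped between the groups. Succinyl-CoA synthetase split by subunit: Suclg1, the subunit common to both forms (81.3 ± 4.90 against 50.9 ± 7.88 RPKM), and Sucla2, of the ADP-forming enzyme (73.6 ± 8.39 against 50.4 ± 6.62 RPKM), were lower. Suclg2, of the GDP-forming enzyme, stood at 25.3 ± 3.78 and 24.5 ± 2.82 RPKM (adjusted p = 0.754). Fumarase, Fh1, was lower by a small step, 31.9 ± 1.46 against 26.1 ± 2.98 RPKM. Aco1, the cytosolic aconitase that doubles as an iron-regulatory RNA-binding protein, did not pass (32.7 ± 2.47 against 29.8 ± 3.55 RPKM, adjusted p = 0.263).

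Promoters were read for the members that RefSeq places, 28 of the 32, as the 250 bases before the first listed start (GRCm38.p6). In GENCODE M21 a transcript starts at the same base in 9 of the 28 and within 50 bases in 24, and 3 windows, Mdh1 among them, belong to starts over 100 bases from any. The search covered both strands for GCGC and GCGC with any 2 bases between them, the palindromic core bound by the nuclear respiratory factor NRF1, for TNAAGGTCA, bound by estrogen-related receptors, for CCGGAAGT, bound by ETS factors, and for CTTTGAT, bound by TCF and LEF factors. The first was found in 3 promoters of the set, Sdha, Sdhd and Sucla2, and in 5.09% of 27025 promoters. These 3 genes were lower in control Apc Min, as were 17 of the 28 with a window. None of the 28 windows held the other motifs, which occur in 1.14%, 2.93% and 3.23% of all promoters. With the others at 0, no motif overlapped another. The 3 promoters are shown first with the NRF1-type matches in capitals, followed by that of Glul, the gene with the largest genotype difference, which holds none.
Sdha (chr13:74350241-74350490, reverse strand): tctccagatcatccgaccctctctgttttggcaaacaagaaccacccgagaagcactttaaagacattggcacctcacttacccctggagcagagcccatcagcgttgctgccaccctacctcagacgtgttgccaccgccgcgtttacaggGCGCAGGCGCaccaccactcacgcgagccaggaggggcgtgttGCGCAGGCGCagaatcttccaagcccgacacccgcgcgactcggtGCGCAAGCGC
Sdhd (chr9:50603850-50604099, reverse strand): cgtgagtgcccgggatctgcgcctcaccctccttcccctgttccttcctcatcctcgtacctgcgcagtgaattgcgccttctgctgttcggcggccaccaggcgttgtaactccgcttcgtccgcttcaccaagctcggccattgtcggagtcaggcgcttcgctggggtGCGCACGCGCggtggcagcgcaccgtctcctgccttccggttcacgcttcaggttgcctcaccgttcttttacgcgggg
Sucla2 (chr14:73552536-73552785, forward strand): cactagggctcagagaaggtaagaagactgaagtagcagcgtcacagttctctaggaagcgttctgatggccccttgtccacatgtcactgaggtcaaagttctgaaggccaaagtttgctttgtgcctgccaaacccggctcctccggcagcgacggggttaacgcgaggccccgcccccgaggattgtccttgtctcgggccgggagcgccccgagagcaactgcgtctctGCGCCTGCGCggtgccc
Glul (chr1:153899679-153899928, forward strand): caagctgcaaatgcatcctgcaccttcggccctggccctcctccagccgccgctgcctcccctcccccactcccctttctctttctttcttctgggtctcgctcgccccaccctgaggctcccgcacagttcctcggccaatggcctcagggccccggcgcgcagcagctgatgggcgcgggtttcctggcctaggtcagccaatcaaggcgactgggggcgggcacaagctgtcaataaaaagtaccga
The match is repeated 3 times in the Sdha window and stands once each in those of Sdhd and Sucla2.

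RNA levels of the pyruvate class differed little between control Apc Min and WT libraries. Pdha1 and Pdhb encode the first enzyme of the pyruvate dehydrogenase complex and Dlat its second. Pdha1 was at 61.9 ± 5.84 RPKM in WT and 63.5 ± 11.1 RPKM in control libraries, and Dlat at 8.82 ± 1.15 and 9.35 ± 1.25 RPKM. Neither passed. Pdhb was lower, at 86.5% of the WT mean (log2 change -0.20 ± 0.08 SE, adjusted p = 0.0297), a call lost without control replicate 2 (Pdhb adjusted p = 0.0625), control replicate 7 (0.0504), WT replicate 1 (0.0629) or WT replicate 3 (0.0724), and with the smooth muscle covariate (0.324). Pcx, pyruvate carboxylase, which makes oxaloacetate from pyruvate, lay at 6.84 to 9.90 RPKM in all WT libraries but replicate 3, which had 28.0 RPKM, and did not pass (adjusted p = 0.645).

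Glul, which makes glutamine from glutamate and ammonia, on chromosome 1 (153899944 to 153909723, forward strand), stood against the direction of the cycle. WT libraries had 18.0 to 37.5 RPKM (median 23.0) and control libraries 71.2 to 160 RPKM (median 109), without overlap. The control mean was 425% of the WT mean (log2 change 2.02 ± 0.22 SE, adjusted p = 2.04e-07), the largest difference among the 32 genes, and the call held in all 29 alternatives. The plasma membrane glutamine transporter Slc1a5 did not pass (21.2 ± 7.39 against 23.5 ± 7.60 RPKM, adjusted p = 0.523). Slc25a11, the mitochondrial carrier that exchanges alpha-ketoglutarate for malate, was lower, at 43.3 ± 6.37 against 29.6 ± 7.88 RPKM (adjusted p = 0.00728; 0.0844 with replicates 1 to 4 only and 0.703, at a change of -0.13, with the smooth muscle covariate).

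DM-aKG against control in Apc Min libraries addressed whether added alpha-ketoglutarate changes the expression of these enzymes. Of the 32 genes 2 rose (Gpt and Aco1), 2 fell (Got2 and Pdhb) and 28 did not pass. Among the 13 that make or use alpha-ketoglutarate 1 rose, 1 fell and 11 did not pass. Cytosolic Aco1, counted with the 12 other TCA cycle enzymes, was the 1 of that class that rose. Pdhb was the 1 of 4 in the pyruvate class that fell. Over all genes tested, 5.91% rose and 27.6% fell, 33.5% in either direction. After quantile normalization 9 of the 32 rose and none fell, where 1750 of the 12433 genes rose and 1849 fell. After median-of-ratios scaling 9 of the 32 rose and none fell, where 1370 rose and 1843 fell. No gene of the set separated the 2 groups without overlap, which 0.732% of all genes did upward and 8.19% downward. The median change of the set was 0.12 and that of all genes -0.14. Within replicates 1 to 4 and 5 to 7, which differ in the ribosomal transcript Rn45s (3836 to 6558 against 1078 to 3621 RPKM), the median of the set was 0.13 and 0.14.

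Gpt rose to 67.2 to 91.4 RPKM in the DM-aKG libraries (median 72.9), against 23.1 to 84.2 RPKM in control libraries (median 38.7). Control replicate 1, at 84.2 RPKM, lay inside the treated range and the other control libraries below it (log2 change 0.79 ± 0.23 SE, adjusted p = 0.011). With replicates 1 to 4 only, the change of Gpt was 0.46 and not called (adjusted p = 0.225). With the mean of the smooth muscle markers as a covariate it was 0.51 (Gpt adjusted p = 0.232). Aco1, on chromosome 4 (40143081 to 40198338, forward strand), rose from 25.5 to 35.6 RPKM in control (median 30.4) to 28.7 to 49.6 RPKM in DM-aKG libraries (median 37.5), where replicate 2 was the lowest and replicate 5 the highest (log2 change 0.35 ± 0.10 SE, adjusted p = 0.0141). Aco1 was not called with replicates 1 to 4 only (0.14, adjusted p = 0.447) or with the smooth muscle covariate (0.32, adjusted p = 0.118).

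Got2 fell from 20.5 to 30.2 RPKM in control (median 26.2) to 14.2 to 29.3 RPKM in DM-aKG libraries (median 19.3), and 5 of the 6 treated libraries lay at 20.8 RPKM or less, with replicate 2 at 29.3 RPKM (log2 change -0.36 ± 0.12 SE, adjusted p = 0.0283). The Got2 call did not survive the removal of control replicate 3 (0.0586), or of replicate 1 (0.0644) or 6 (0.0817) of DM-aKG. It was lost as well after quantile normalization (0.187), median-of-ratios scaling (0.194) and with replicates 1 to 4 only (0.346). It did not pass with only the 2 groups compared (0.0659) or with the smooth muscle covariate (0.252). Pdhb fell from 32.7 ± 2.72 to 28.1 ± 2.53 RPKM (adjusted p = 0.0447), a call lost in 17 of 29 alternatives. These were the replicate block (0.0564), 5 further fits to all or some libraries (Pdhb adjusted p 0.0749 to 0.74) and 11 fits that left out a single library (0.0515 to 0.112), which was one of WT replicates 2, 6 and 7, control replicates 3, 4, 6 and 7, or DM-aKG replicates 1, 3, 4 and 5.

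The enzymes with the largest genotype differences had the following values with treatment. Ogdh ran from 21.9 to 87.9 RPKM in DM-aKG libraries (median 57.7) against 19.0 to 56.9 RPKM in control libraries, a change of 0.39 ± 0.28 SE that did not pass (adjusted p = 0.298). Mdh1 was at 112 ± 46.5 RPKM with DM-aKG (SD, n = 6) and 96.0 ± 34.2 RPKM in control libraries (adjusted p = 0.653), and Cs at 176 ± 35.6 and 151 ± 35.9 RPKM (adjusted p = 0.282). Glul was at 94.0 ± 27.8 RPKM with DM-aKG and 111 ± 36.1 RPKM in control libraries (adjusted p = 0.477). Glud1 libraries ran from 96.1 to 125 RPKM with DM-aKG and from 58.6 to 104 RPKM in control, overlapping through control replicates 3 and 4 (log2 change 0.43 ± 0.21 SE, adjusted p = 0.115). With only the 2 groups compared, Glud1 was called higher (adjusted p = 0.0244).

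Some enzymes lay near the threshold, and their calls moved with the processing. Dlst had a change of 0.29 ± 0.12 SE (adjusted p = 0.0624) and was called higher with the replicate block (Dlst adjusted p = 0.0237), after quantile normalization (0.00287) or median-of-ratios scaling (0.0177), or when WT replicate 1 (0.0461), control replicate 1 (0.0174) or DM-aKG replicate 2 (0.0488) was left out. Suclg1 had a change of 0.23 ± 0.10 SE (adjusted p = 0.074) and was called higher after quantile normalization (0.0132) or median-of-ratios scaling (0.0035), or with replicate 2 of DM-aKG (0.0481) or control replicate 1 (0.0466), 2 (0.048) or 6 (0.0419) left out. Dlat averaged 9.35 ± 1.25 RPKM under control treatment and 7.63 ± 1.23 RPKM under DM-aKG (adjusted p = 0.0575), and was called lower when control replicate 4 (Dlat adjusted p = 0.0229) or DM-aKG replicate 2 (0.0156) was left out. Both Idh1 (88.2 ± 6.59 and 87.1 ± 24.7 RPKM, adjusted p = 0.758) and Idh2 (28.7 ± 5.87 and 27.7 ± 8.87 RPKM, adjusted p = 0.742) were far from it, as were Gpt2 (adjusted p = 0.951), Slc1a5 (0.739) and Slc25a11 (0.832). Got1 had a change of 0.31 ± 0.18 SE (adjusted p = 0.198) and was called higher after quantile normalization (Got1 adjusted p = 0.0337). Quantile normalization also gave Sucla2 (0.004), Sdhb (0.0407), Idh3g (0.0448) and Suclg2 (0.0456) as higher. Median-of-ratios scaling did so for Idh3b (0.0047), Sdha (0.0151), Idh3g (0.0222), Suclg2 (0.0327) and Sucla2 (0.0425). An interaction of treatment with the replicate sets passed for none of the 32 genes in limma, and 3 had an unadjusted p under 0.05. Over all 12433 genes tested, 0.209% passed, and 1460 had an unadjusted p under 0.05. In the second set DM-aKG had replicates 5 and 6 only, so this test could miss a difference between sets. The change in the first and second set was 0.46 and 1.19 for Gpt and 0.14 and 0.70 for Aco1. For Got2 it was -0.25 and -0.56, and for Pdhb -0.24 and -0.14.

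**Figure D3:**
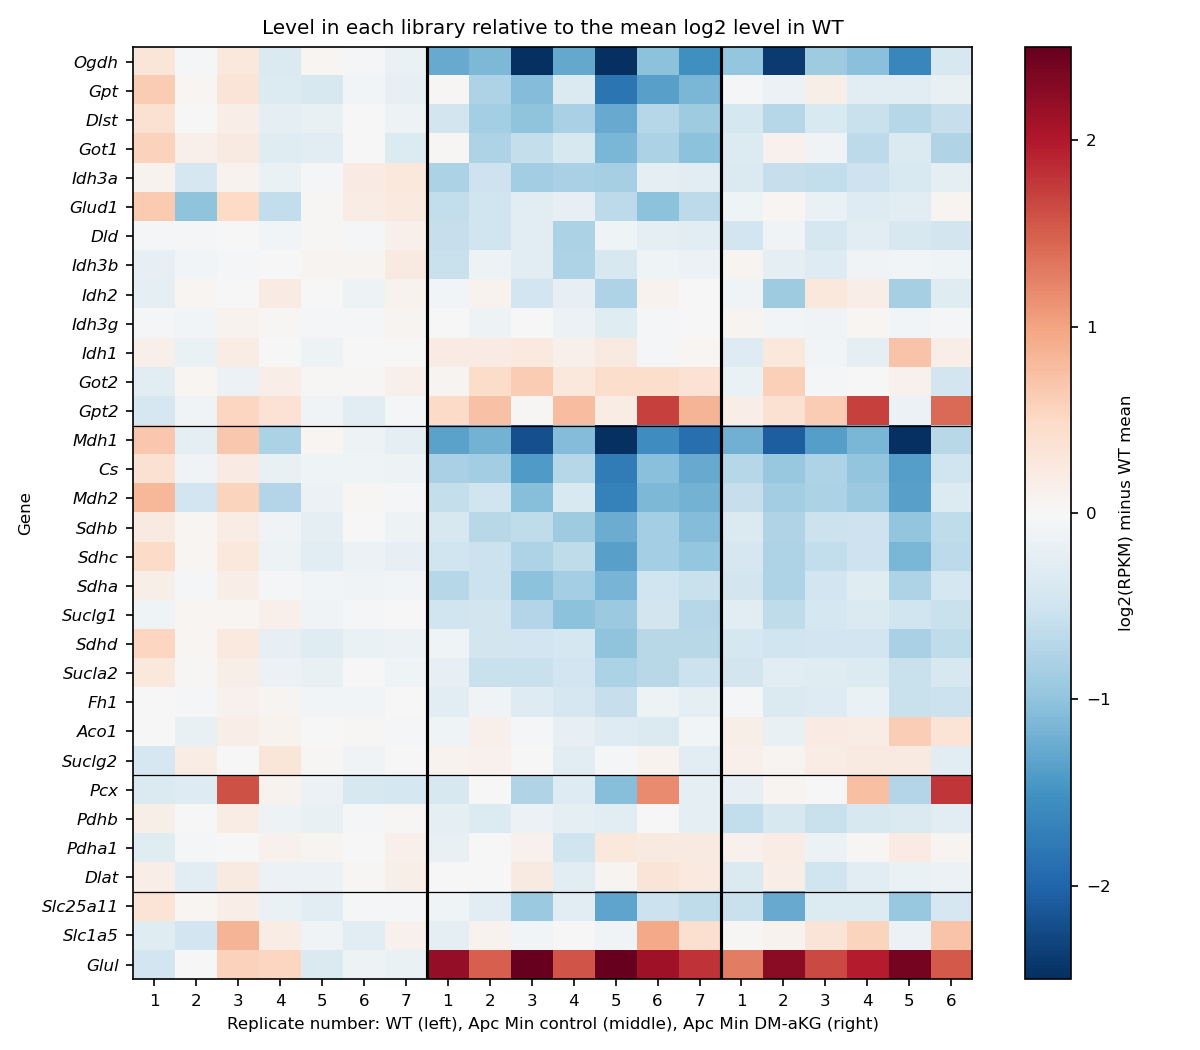
log2(RPKM) of 32 genes (rows, by class) in 20 libraries (columns, by group and replicate number), minus the mean of the 7 WT libraries. Blue rows such as Ogdh, Mdh1 and Cs run across both Apc Min groups, Glul is red across both, and control replicate 5 is the bluest column, with the lowest control value in 16 of 32 genes.

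Treated Apc Min against WT libraries, which share the treated libraries with the preceding comparison and the WT libraries with the first, gave 16 of 32 genes lower, 1 higher (Glul) and 15 that did not pass. Over all genes tested, 17.3% were lower and 21.9% higher, 39.2% in either direction. In 12 genes every DM-aKG library lay below every WT library (7.79% of all genes tested), and Glul lay above in every library (9.36%). Of the 12 other TCA cycle enzymes 10 were lower, and of the 13 that make or use alpha-ketoglutarate 4 were lower: Idh3a, Ogdh, Dlst and Dld. Ogdh in DM-aKG libraries was at 46.2% of the WT mean (34.7% in control libraries), Mdh1 at 36.2% (31.1%), Cs at 54.7% (46.9%), Sdha at 69.0% (59.4%) and Dlst at 67.2% (55.2%). Gpt was at 89.5% of the WT mean with DM-aKG and 55.3% in control libraries, Glud1 at 85.9% and 64.3%, Got1 at 78.3% and 63.4%, and Idh3b at 91.6% and 79.8%. None of these last 4 genes passed against WT with DM-aKG (adjusted p = 0.68 for Gpt, 0.653 for Glud1, 0.143 for Got1 and 0.366 for Idh3b). Got1 was called lower with the replicate number as a block (-0.40, adjusted p = 0.0376) and with replicate set as a factor (-0.38, adjusted p = 0.0458). Of them the step from control to DM-aKG passed for Gpt alone. Glul in DM-aKG libraries was at 360% of WT (log2 change 1.8 ± 0.22 SE, adjusted p = 9.22e-06).

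Ratios within a library do not depend on its scaling, and 8 were tested by exact 2-sided permutation over libraries, with p adjusted over the 8. The ratio of Glul to Glud1, glutamine synthesis over glutamate oxidation, ran from 0.096 to 0.468 in WT (median 0.167) and from 0.722 to 2.03 in control libraries (median 1.47), without overlap (exact p = 0.000583, the smallest 7 against 7 can give, adjusted 0.00466). With DM-aKG it ran from 0.554 to 1.34 (median 0.846), which overlapped the control range (exact p = 0.0554, adjusted 0.0886). Got1 to Got2, cytosolic over mitochondrial, had a median of 2.51 in WT, 1.11 in control and 1.99 in DM-aKG libraries, and both steps passed (exact p = 0.00408, adjusted 0.0109, control against WT, and exact p = 0.0146, adjusted 0.0292, DM-aKG against control). For Gpt to Gpt2 the medians were 34.9, 13.8 and 27.7, and the genotype step passed (exact p = 0.00117, adjusted 0.00468) while the treatment step did not (exact p = 0.112, adjusted 0.128). Idh1 to Idh2 passed in neither (adjusted exact p = 0.102 for control against WT and 0.935 for DM-aKG against control). A ratio shows that its 2 genes changed unequally, not which of them changed.

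Libraries of a group differed in ways common to several members. Among WT libraries replicate 1 was the highest in 13 of 32 genes and the lowest in 8, and replicate 3 was the highest in 11. The Mdh1 levels of these 2 libraries, 465 and 463 RPKM, stood above the 169 to 300 RPKM of the other 5. Among control libraries replicate 5 was the lowest in 16 genes, with Ogdh at 19.8, Mdh1 at 47.0 and Gpt at 23.1 RPKM, while its Glul, 155 RPKM, was the second highest. Control replicate 3 resembled it in Ogdh (19.0 RPKM) and Glul (160 RPKM). Among DM-aKG libraries replicate 5 was the lowest in 12 genes, with Mdh1 at 51.2 RPKM and the highest Glul, 132 RPKM, and replicate 6 was the highest in 9, with Ogdh at 87.9 RPKM. In both Apc Min groups the library with the lowest Mdh1 and the lowest Cs was thus replicate 5. The summed level of the 15 enterocyte markers was likewise highest in WT replicate 1.

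Genes around the cycle that are not in the set were taken from a list of 34, of which 27 were tested. With DM-aKG 5 rose, 4 fell and 18 did not pass, where 5.91% of all genes tested rose and 27.6% fell, 33.5% in either direction. Among those that rose was the malic enzyme Me2, from 88.1 ± 18.3 to 135 ± 22.7 RPKM (log2 change 0.62, adjusted p = 0.00405). The mitochondrial pyruvate carrier subunit Mpc1 rose from 61.8 ± 6.10 to 78.6 ± 4.18 RPKM, with every treated library above every control library. The transaminases Kyat3 (log2 change 0.58) and Abat (0.96), which degrade kynurenine and GABA with alpha-ketoglutarate among their acceptors, rose as well. Those that fell were the glutamine transporter Slc38a1 (-0.67), asparagine synthetase Asns (-0.83), Psat1 of serine synthesis (-0.54) and the citrate carrier Slc25a1 (-0.37). Against WT, control libraries had 8 of the 27 lower and 4 higher. The shares of all genes tested were 15.7% and 43.2%, 58.8% in either direction. Me2 (-1.39) and Abat (-1.43) were among the lower and the glutamine transporters Slc38a2 (0.98) and Slc38a1 (0.76) among the higher.

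Genes of mitochondrial structure and import did not follow the enzymes in count between control Apc Min and WT libraries. Of 21 in the list, 4 were lower and 5 higher in control Apc Min than in WT libraries. The shares of all genes tested were 15.7% lower and 43.2% higher. The median change of the 21 was 0.05, where the 12 other TCA cycle enzymes had a median of -0.72. The summed level of these 21 genes was 876 to 1050 RPKM in control and 933 to 1180 RPKM in WT libraries. For the 12 TCA cycle enzymes the sums were 623 to 1100 RPKM in control and 1360 to 2360 RPKM in WT libraries, without overlap. With DM-aKG 2 of the 21 fell and none rose (median -0.13), where 27.6% of all genes tested fell and 5.91% rose. In DM-aKG against WT 9 of the 21 were lower and 2 higher (median -0.18). There the shares of all genes tested were 17.3% lower and 21.9% higher.

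Markers of cell types were counted in the same comparisons. The shares of all genes tested were 43.2% higher and 15.7% lower in control than in WT libraries. With DM-aKG 5.91% of all genes tested rose and 27.6% fell. Of 15 enterocyte markers 9 were lower and 1 higher in control Apc Min than in WT libraries, and 8 rose with DM-aKG. Their sums were 7730 to 22200 RPKM in control, 15500 to 25900 RPKM in DM-aKG and 12200 to 31100 RPKM in WT libraries. All 11 smooth muscle markers were lower in control libraries than in WT (median -1.06) and all 11 rose with DM-aKG (median 0.82). Of 9 fibroblast markers 8 were higher in control than in WT libraries, and 7 fell with DM-aKG. Of 9 Paneth cell markers 8 were lower in control than in WT libraries and 8 rose with DM-aKG. All 9 leukocyte and plasma cell markers tested were lower in control than in WT libraries, and none passed with DM-aKG. Of 8 pan-epithelial markers 3 were higher and 2 lower in control than in WT libraries, and 7 fell with DM-aKG. Of 7 Wnt and stem cell markers 5 were higher and 1 lower in control libraries, and 5 fell with DM-aKG. With the mean of the smooth muscle markers as a covariate, 9 of the 20 genes called lower in control libraries passed: Mdh1, Cs, Dlst, Dld, Glud1, Sucla2, Suclg1, Sdha and Sdhb. Over all genes tested, the number called lower went from 1948 to 575 with it, and the number called higher from 5368 to 2916. Of the 11 members that then did not pass, Fh1 had a change of -0.05 (adjusted p = 0.783), Slc25a11 of -0.13 (0.703), Pdhb of -0.16 (0.324), Idh3b of -0.24 (0.248) and Sdhd of -0.30 (0.245). Got1 had one of -0.41 (0.244), Idh3a of -0.46 (0.054), Sdhc of -0.48 (0.0764), Gpt of -0.59 (0.173), Mdh2 of -0.77 (0.106) and Ogdh of -0.91 (0.0648), while Glul kept a change of 1.84 (0.000372). Because the smooth muscle markers themselves differed between the groups, this fit cannot separate their part from that of group. The part of smooth muscle or of any other cell type in these differences was not tested.

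**Figure D4:**
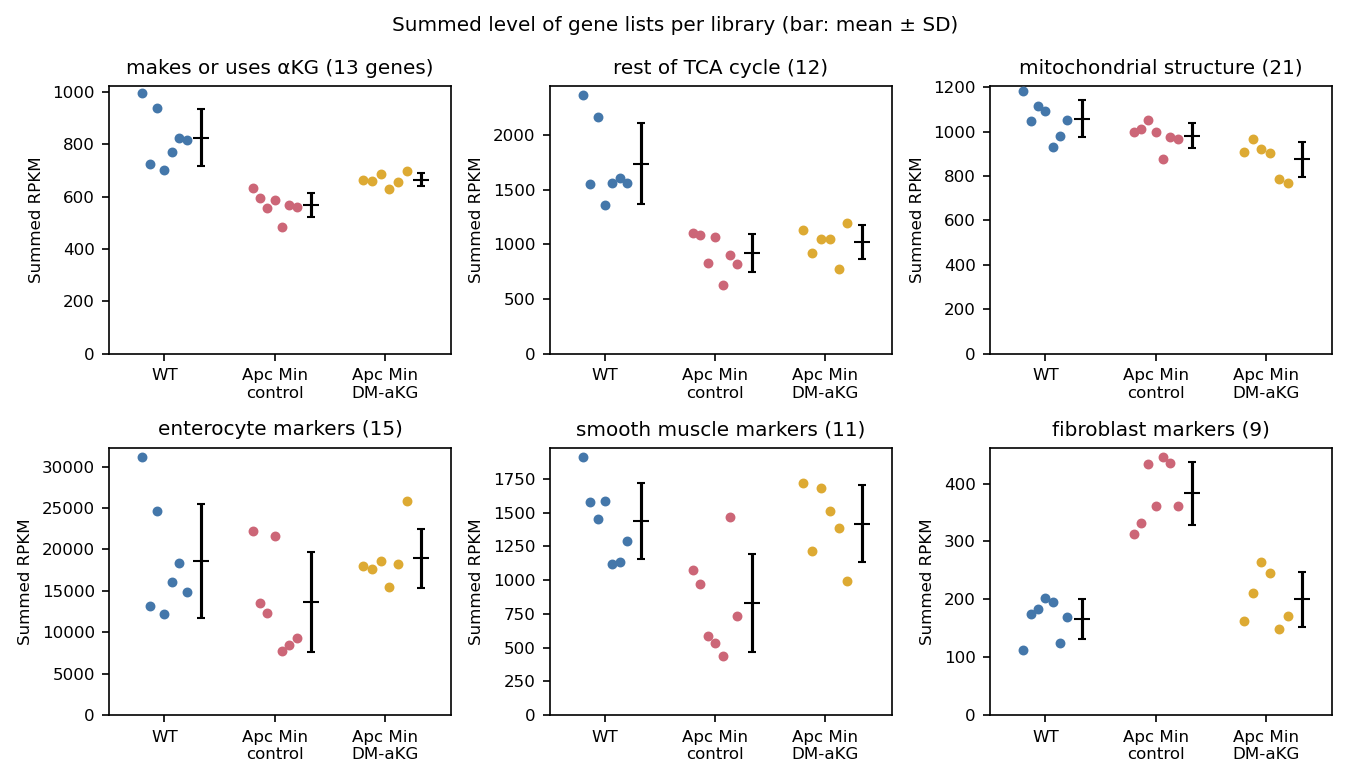
Summed RPKM per library of the 13 enzymes that make or use alpha-ketoglutarate, the 12 other TCA cycle enzymes, 21 genes of mitochondrial structure and 3 lists of cell type markers, by group (points in replicate order, mean ± SD beside them, linear axes from 0). The sums of the TCA cycle enzymes separate WT from control Apc Min libraries, while those of the mitochondrial structure genes overlap.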

How the data were processed

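RNA-seq of 20 mouse intestinal libraries gave 1 table of 24795 genes that the authors deposited. Its values were read as RPKM, deposited by the authors without a stated unit: library sums ran from 277634 to 369409, and the smallest steps differ between genes. The submitters' processing notes name mm10, Partek, HISAT2 2.0.4 and CASAVA 1.8 without a role. The annotation and the strand setting were not found in the labels. RPKM divides by the library total, so a change in abundant genes moves all others.

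Groups and replicate numbers came from titles. The filter asked for 1 RPKM or more in 6 or more libraries and left 12433 genes, and log2(RPKM + 1) was fitted over 3 groups with limma 3.58.1 in R 4.3.3 (trend and robust, statmod 1.5.0). The fit was tested on simulated data. Members called in any comparison and 11 fixed ones were to be described in full, and the rest by range. Some called members, such as Sdhb, Sdhc and Sdhd, are given with part of their values. The members and lists were chosen with earlier results of these data known. Some genes of the lists are counted but not reported by name here. Alternatives, 29 in all, varied pseudocount (0.1), filter, scaling, covariates and libraries.

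Depth was estimated from genes with 1 transcript in GENCODE M21: at 8 reads or fewer, 65.7 to 70.2% of values lay 0.1 read or less from a whole read (20% for an even spread), over totals of 10 to 40 M reads. Counts were not recovered. No 2 libraries held identical values. Python 3.11.15, numpy 2.4.6, pandas 2.3.3 and matplotlib 3.10.9 were used. Coordinates are from GENCODE M21, on the same build as the notes name.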

Additional observations from a re-analysis of the deposited data

Results flagged for a closer look

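Some libraries stood apart from the rest of their group in single genes, by the gap to the nearest library as a share of the whole range. Of 96 groups of values checked 6 did so, and chance gives about 1 in 20. Pcx, pyruvate carboxylase, was at 28.0 RPKM in WT replicate 3, where the next was 9.90 RPKM, and at 21.2 RPKM in control replicate 6, where the next was 9.41 RPKM. Gpt2 was at 6.79 RPKM in control replicate 6, above a next value of 3.74 RPKM. Slc1a5 was at 36.4 RPKM in WT replicate 3, above 23.2 RPKM. Suclg2 was at 20.9 RPKM in DM-aKG replicate 6, below a next value of 26.2 RPKM, and Pdha1 at 50.1 RPKM in WT replicate 1, below 60.2 RPKM.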

How the results depend on the processing

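Over 29 alternatives and 3 comparisons, 2671 of 2784 values for single genes kept their side of the threshold, 78 of them with the other sign and called in neither fit. A call was lost in 75, gained in 38 and reversed in none. In 7 of the 32 genes no call changed. For DM-aKG over control, the 2 genes higher became 9 after quantile normalization, 9 after median-of-ratios scaling, 0 with replicates 1 to 4 only and 0 with the smooth muscle covariate. The 2 lower became 0 in each of these and with only the 2 groups compared. Leaving out single libraries gave 2 to 4 higher and 0 to 3 lower. Control replicate 1 or DM-aKG replicate 2 left out gave 4 higher, and control replicate 3 or DM-aKG replicate 1 left out gave 0 lower. Leaving out one of WT replicates 2, 6 and 7, control replicates 6 and 7 or DM-aKG replicates 3 to 6 gave 1 lower. For control over WT, the 3 higher became 1 after quantile normalization, median-of-ratios scaling or with replicates 1 to 4 only (2 to 3 leaving out single libraries). The 20 lower became 9 with the smooth muscle covariate (18 to 20 leaving out single libraries). For DM-aKG over WT, the 1 higher became 2 after quantile normalization and with the smooth muscle covariate (1 to 2 leaving out single libraries, 2 when one of DM-aKG replicates 1, 2 and 5 or control replicate 6 was left out), and 16 were lower without any single library. The cause of these moves was not tested.

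The replicate number as a block left 1 gene lower with DM-aKG in place of 2, and gave 2 genes higher over WT in place of 1, 17 lower than WT in place of 16 (Got1 among them), and 3 higher with DM-aKG. Libraries with the same number also fall in the same replicate set, and no label was found that ties them otherwise. Their deviations from the group means correlated at -0.457 to 0.604 over 19 pairs (median 0.066). The median was 0.122 for other numbers of the same set and -0.098 across sets. Of 20 libraries, 4 were closest to their own number.

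With replicates 1 to 4 only, no ratio passed once adjusted over the 8, where 0.0286 is the smallest exact p that 4 against 4 can give. The log2 differences were then -1.11 for Gpt to Gpt2 and -0.99 for Got1 to Got2 in control over WT, 2.11 for Glul to Glud1 in control over WT, and 0.45 for Got1 to Got2 in DM-aKG over control.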
